A study of Mus musculus with 6 samples.

Results

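Complex I, NADH:ubiquinone oxidoreductase, is the first and largest enzyme of the mitochondrial respiratory chain. The nuclear genes of its subunits were compared here between fully grown XY and XX mouse oocytes. Members were the probe sets that the platform annotation gives to 1 gene symbol beginning with Ndufa, Ndufb, Ndufc, Ndufs or Ndufv, with the assembly factors, named Ndufaf, left out. They came to 78 of 45037 probe sets and to 36 genes. Another 10 probe sets carried a subunit symbol beside other symbols and were not used. Ndufs6 and Ndufa11 had no probe set of their own by this rule and were not analysed here. After a filter on low signal, 68 probe sets and 35 genes were tested. Ndufb4 was left out by the filter, with normalized intensities of 21.1 to 21.8 in XY and 13.01 to 22.1 in XX.

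The XY group comprised 3 arrays of germinal vesicle (GV) oocytes from B6.Y(TIR) XY females, and the XX group 3 arrays from their XX littermates. In B6.Y(TIR) mice a Y chromosome of Tirano origin lies on the C57BL/6 background, and XY animals can develop ovaries. All females were 25 to 29 days old, had received 5 IU of equine chorionic gonadotropin, and were killed 45 to 47 hours later, so both groups were hormonally primed. Each array was made from the RNA of 10 oocytes freed of their cumulus cells, amplified in 2 cycles from oligo(dT) primers. The XY oocytes differ from the XX oocytes both in having a Y and in having a single X, and these cannot be told apart with the 2 groups at hand.

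In complex I a hydrophilic arm reaches into the mitochondrial matrix and a membrane arm lies in the inner membrane. The N module at the tip of the matrix arm takes electrons from NADH, the Q module below it hands them to ubiquinone, and the proximal and distal parts of the membrane arm pump protons. The catalytic core subunits are conserved from bacteria. The accessory subunits stabilise the enzyme and help it assemble, and a further group of core subunits of the membrane arm is encoded by mitochondrial DNA. Fully grown oocytes take up pyruvate from their follicle and oxidise it in mitochondria, all of which the embryo inherits from its mother. Dormant oocytes of human and Xenopus ovaries have been reported to lack assembled complex I.

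Of the 35 complex I genes tested, 4 rose in XY oocytes and 0 fell (limma, adjusted p under 0.05). These were Ndufs8, Ndufs1, Ndufa12 and Ndufs4, with rises of 1.52-fold to 1.85-fold. Among all 12442 genes tested, 7.86% rose and 5.34% fell, so the share of 11.4% that rose is near that of all genes. At an unadjusted p under 0.05, 12 of the 35 were higher and 2 were lower. Of all 12442 genes, 2346 were higher and 1657 were lower at that unadjusted p. The unadjusted counts given below for modules and lists are to be read beside these. The median log2 change of the 35 was 0.35, against 0.07 over all genes, and 27 of the 35, or 77.1%, had a positive change, against 55.6% of all genes. The XY values lay wholly above the XX values for 13 of the 35 genes (37.1%), as for 22.6% of all genes, and wholly below them for 3 (8.57%), as for 16.2% of all genes.

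One XX array stood apart from the other 2 in the complex I genes. After subtracting the mean of the 6 arrays from a gene's log2 values, the median over the 35 genes minus the median over all genes was 0.10, 0.11 and 0.11 on arrays XY 1, XY 2 and XY 3. For XX 1 this value was 0.07, whereas XX 2 had -0.31 and XX 3 had -0.33. XX 1 thus lay beside the XY arrays. The log2 ratio of the 3' to the 5' control of Actb, a measure of how far labelled RNA reaches from its 3' end also placed XX 1 beside the XY arrays. Its values were 5.90, 5.20 and 5.61 for the XY arrays, and 5.53, 3.87 and 3.996 for XX 1, XX 2 and XX 3. The part of this control in the changes of complex I genes was not tested beyond its use as a covariate. In 21 of the 35 genes (60%), XX 2 and XX 3 were the 2 lowest arrays of the 6, as in 22.9% of all genes.

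**Figure D1:**
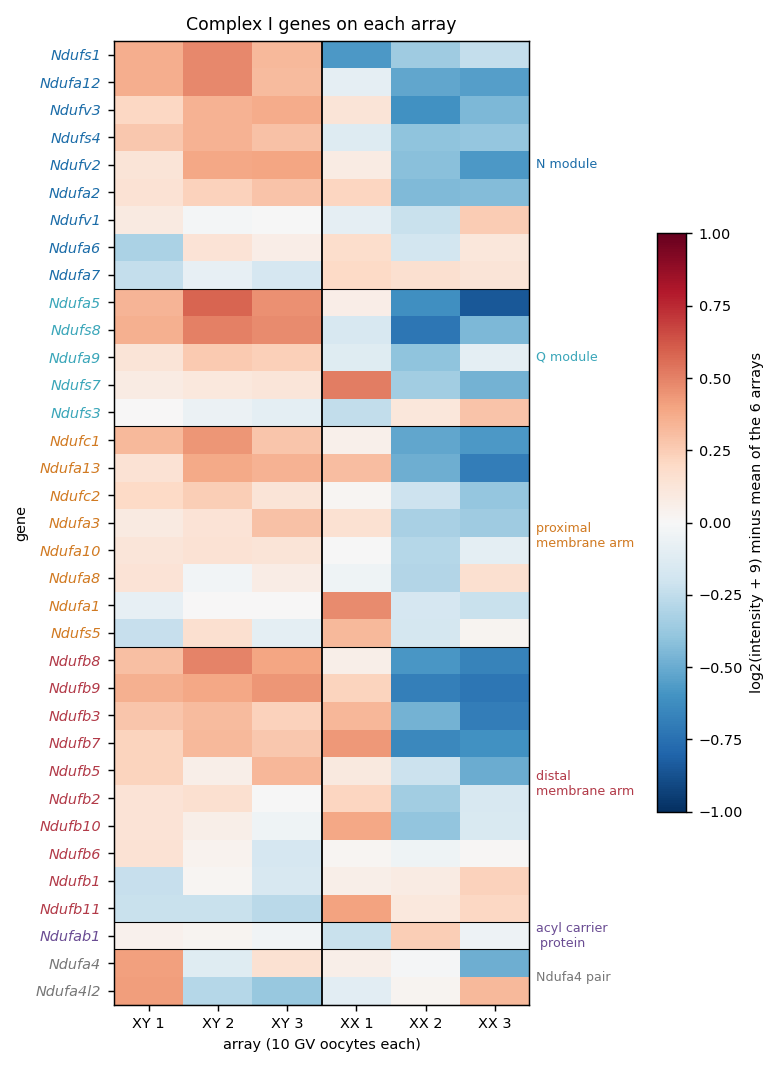
Level of each of the 35 complex I genes on each array, as log2(normalized intensity + 9) minus the mean of the 6 arrays, with XY arrays left of XX arrays and genes grouped by module. In 21 of the 35 genes XX 2 and XX 3 are the 2 lowest arrays; Ndufs1, whose lowest array is XX 1, and Ndufb11 and Ndufa7, which are lower in XY, are among the exceptions.

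Counts of called genes moved with the arrays used. Unadjusted counts for these and the other settings, and for probe sets, were made for complex I alone, so they have no background beside them. Without XX 1, 17 of the 35 complex I genes rose in XY and 0 fell (limma, 21 higher and 1 lower at an unadjusted p under 0.05), when 15.9% of all genes rose and 10.1% fell. Without XX 2, 0 rose (limma, 7 at an unadjusted p under 0.05), when 3.26% of all genes rose and 1.73% fell, and without XX 3, 1 rose, Ndufs1, when 3.24% rose and 1.78% fell. Without XY 1, XY 2 or XY 3, 0 rose in each case (limma, 10, 8 and 7 at an unadjusted p under 0.05), with 2.91%, 2.45% and 2.8% of all genes higher and 1.88%, 1.46% and 1.74% lower. With XX 1 as the lone XX array against the 3 XY arrays, 0.00804% of all genes rose and 0% fell, so the count of complex I genes called in that comparison carries no information. With the Actb ratio as a covariate the median relative to all genes was 0.03, against 0.28 without it, and 0 passed (limma, 4 higher and 1 lower at an unadjusted p under 0.05), when 1.28% of all genes were higher and 0.619% lower.

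**Figure D2:**
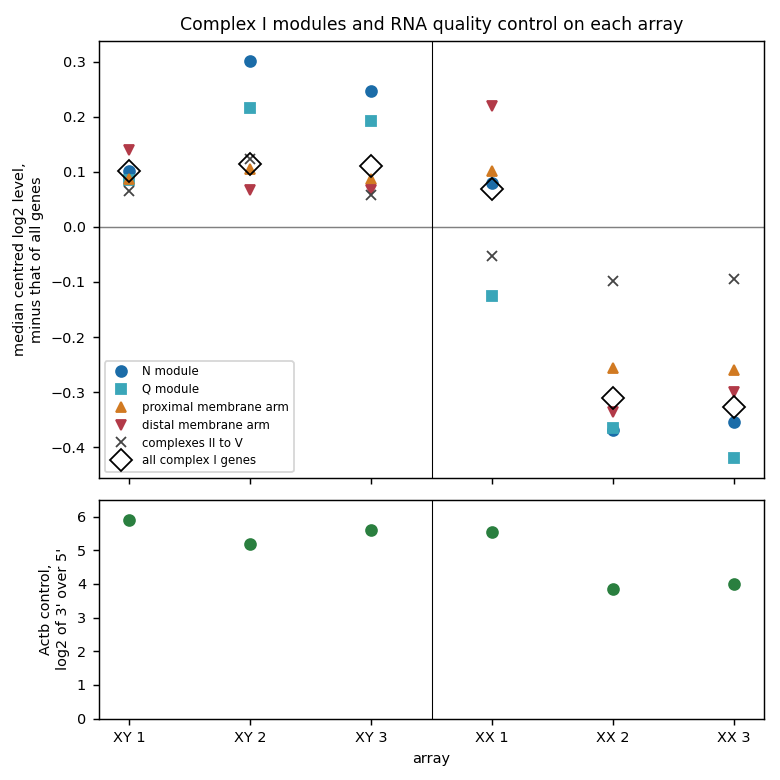
Upper panel, median centred log2 level of the genes of each complex I module and of complexes II to V, minus the median of all genes, on each array, with XY arrays left of XX arrays. Lower panel, log2 ratio of the 3' to the 5' Actb control on the same arrays. All complex I genes together lie at 0.10 to 0.11 on XY arrays, at 0.07 on XX 1 and at -0.31 and -0.33 on XX 2 and XX 3, and the control ratio of XX 1 lies among those of XY.

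The counts also moved with the scaling and the test, and the share of all genes called moved too. On the deposited scale 0 of the 35 complex I genes passed (limma, 0 higher and 1 lower at an unadjusted p under 0.05), when 3.79% of all genes rose and 4.24% fell. With median scaling 0 rose and Ndufb11 fell (0 higher and 4 lower at an unadjusted p under 0.05), when 3.88% rose and 13% fell. With trimmed mean scaling the same 4 genes rose, when 11.5% rose and 4.69% fell. A pseudocount of 1 left 4 higher (6.7% and 4.36% of all genes higher and lower) and one of 32 gave 7 (10.4% and 7.02%).

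Fewer genes rose without a filter, where Ndufs1 alone passed (3.11% of all genes higher and 1.91% lower), and more with a filter at the 70th percentile, where 7 rose and Ndufb11 fell (15.1% and 10.7%). The mean of each gene's probe sets gave 2 higher, with Ndufa7 lower (7.28% and 6.2%). A variance trend gave 12 higher (11.5% and 8.08%), array weights 14 (15.8% and 10.5%) and an adjusted p of 0.10 gave 10 (14.3% and 9.98%), each with Ndufb11 lower. With the replicate number as a block 0 passed (limma, 10 higher and 1 lower at an unadjusted p under 0.05), when 3.41% of all genes rose and 2.05% fell.

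**Figure D3:**
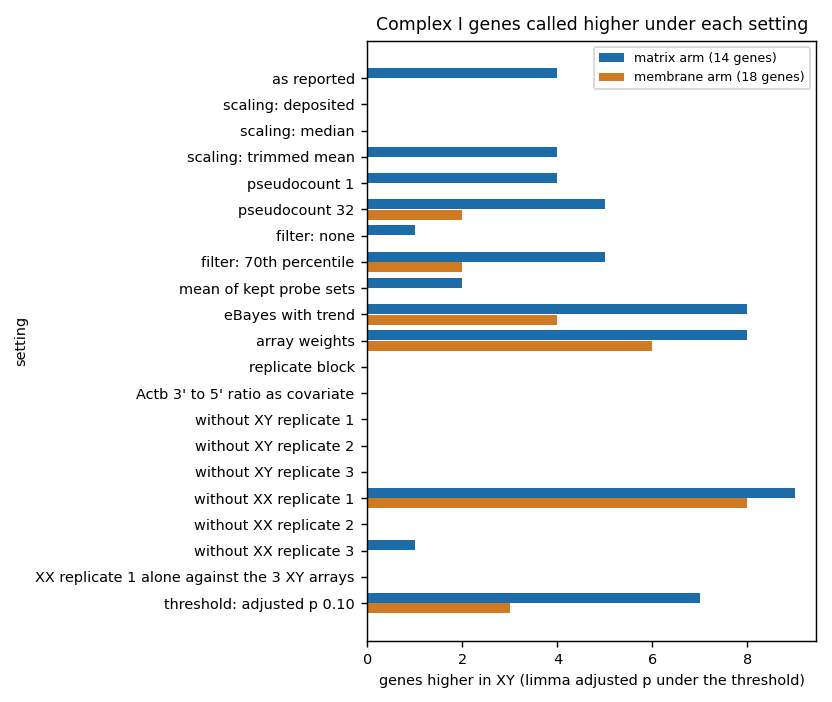
Number of complex I genes called higher in XY under the reported setting and each alternative, for the 14 genes of the matrix arm and the 18 of the membrane arm. Without XX replicate 1 the numbers are 9 and 8, and both are 0 with the deposited scale, median scaling, the replicate block, the Actb ratio as a covariate, XX 1 as the lone XX array, and without XX 2, XY 1, XY 2 or XY 3.

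In the N module, 3 of 9 genes rose and 0 fell, when 7.86% of all genes rose and 5.34% fell (limma, 5 higher and 1 lower at an unadjusted p under 0.05), with a median log2 change of 0.60. Ndufs1, the largest core subunit, carries several iron-sulfur clusters of the electron path. Its normalized intensity was 607, 662 and 591 in XY 1, XY 2 and XY 3, and 313, 365 and 398 in XX 1, XX 2 and XX 3. The groups did not overlap, and here XX 1 was the lowest array, unlike in most other members. Its log2 level averaged 9.30 ± 0.08 in XY and 8.52 ± 0.17 in XX (SD, n = 3 each), a change of 0.78 ± 0.15 (SE, limma adjusted p = 0.0216). The call held without XX 1 (adjusted p = 0.0185) and without XX 3 (0.0455), and of 19 alternatives Ndufs1 passed in 10, the most of any complex I gene. On the deposited scale it read 643, 506 and 483 in XY and 253, 424 and 541 in XX, where the groups overlap.

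Ndufa12 is an accessory subunit near the junction of the N and Q modules, and its relative Ndufaf2 holds its place during assembly. It read 2981, 3233 and 2885 in XY 1, XY 2 and XY 3, and 2168, 1607 and 1573 in XX 1, XX 2 and XX 3. XX 1 was the highest XX array but stayed below all XY arrays. The change was 0.78 ± 0.18 (log2 ± SE, limma adjusted p = 0.0314), and it passed in 8 of 19 alternatives. Ndufs4, an accessory subunit whose loss in mice leads to a Leigh-like encephalopathy, read 443, 470 and 451 in XY against 335, 275 and 279 in XX 1, XX 2 and XX 3. Its change was 0.61 ± 0.15 (adjusted p = 0.0391), and 7 of 19 alternatives called it.

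The other core subunits of the N module did not pass. Ndufv1, which binds NADH and the flavin that first takes its electrons, read 3997, 3702 and 3740 in XY and 3523, 3219 and 4489 in XX. Its groups overlapped, and its change of 0.04 had a 95% interval of -0.36 to 0.44. Ndufv2, which carries an iron-sulfur cluster beside the flavin, read 2663, 3182 and 3202 in XY and 2578, 1821 and 1635 in XX 1, XX 2 and XX 3, with a change of 0.60 ± 0.21 (adjusted p = 0.0927). XX 1 lay just under the lowest XY array. The accessory subunit Ndufv3 had the same pattern, with 2188, 2404 and 2447 in XY and 2072, 1236 and 1379 in XX (log2 change 0.62, adjusted p = 0.0973).

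Among the accessory N module genes, Ndufa7 ran the opposite way. It read 242, 271 and 256 in XY and 331, 322 and 316 in XX, with no overlap and a change of -0.32 ± 0.14 (adjusted p = 0.150). All 5 kept probe sets of Ndufa7 had negative changes, from -1.15 to -0.18, and their mean passed (-0.52, adjusted p = 0.0455). The change of Ndufa2, a subunit with a thioredoxin-like fold, was 0.44, with 5351 in XX 1 inside the XY range of 5098 to 5631 and 3400 and 3422 in XX 2 and XX 3. Ndufa6, which binds the acyl carrier protein, had a change of -0.07.

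In the Q module, 1 of 5 genes rose and 0 fell, beside the same 7.86% and 5.34% of all genes (limma, 3 higher and 0 lower at an unadjusted p under 0.05), with a median log2 change of 0.42. Ndufs8, a core subunit with a pair of iron-sulfur clusters close to the ubiquinone site, had the largest rise that passed. It read 3843, 4270 and 4166 in XY 1, XY 2 and XY 3, and 2687, 1818 and 2199 in XX 1, XX 2 and XX 3. All XY arrays lay above all XX arrays. The log2 level averaged 12.00 ± 0.08 in XY and 11.11 ± 0.28 in XX (SD, n = 3 each), a change of 0.89 ± 0.18 (SE, limma adjusted p = 0.0238). It passed in 7 of 19 alternatives, and on the deposited scale it read 4046, 3260 and 3376 in XY and 2294, 2158 and 3009 in XX. These values are of the brightest of its 6 kept probe sets. Tested each on its own, those with changes of 0.89 and 0.90 passed. Those with 0.44, 0.32, 0.15 and 0.05 did not, and their groups overlapped.

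Ndufa5, an accessory subunit of the Q module, had the largest change of all members but did not pass, at 0.92 ± 0.25 (adjusted p = 0.0511). It read 2917, 3451 and 3168 in XY and 2414, 1501 and 1277 in XX 1, XX 2 and XX 3. Ndufa9, which lines the ubiquinone pocket, had a change of 0.42 (adjusted p = 0.109). Ndufs7, the core subunit with the last iron-sulfur cluster before ubiquinone, read 3333, 3373 and 3411 in XY and 4479, 2468 and 2264 in XX 1, XX 2 and XX 3. XX 1 lay above all XY arrays, and XX 2 and XX 3 lay below them. Its change was 0.20, or 0.50 without XX 1 (adjusted p = 0.0341). Ndufs3, a core subunit with no cluster, had a change of -0.11, with XX 1 the lowest array at 925 and XX 3 the highest at 1341, against 1023 to 1100 in XY. Over the 6 core subunits tested, 2 rose and the median was 0.40, and over the 29 other genes 2 rose (6.9%, against 7.86% of all genes) and the median was 0.35.

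Stretches of the 200 bases before the annotated starts are shown for the genes that rose and had a promoter in the RefSeq table (build GRCm38.p6), and for X-linked Ndufb11, which had the largest negative change. Each is 5′ to 3′ on the gene's strand, and capitals mark matches to GGGCGG, the letters searched for SP1, on either strand. Ndufs8 lies at chr19:3912775-3912974, minus strand, Ndufa12 at chr10:94198835-94199034, plus strand, Ndufs4 at chr13:114388095-114388294, minus strand, and Ndufb11 at chrX:20617620-20617819, minus strand.
Ndufs8: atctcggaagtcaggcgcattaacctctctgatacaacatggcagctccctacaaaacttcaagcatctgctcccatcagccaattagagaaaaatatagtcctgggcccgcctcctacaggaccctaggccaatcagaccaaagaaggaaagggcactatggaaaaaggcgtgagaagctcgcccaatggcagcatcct
Ndufa12: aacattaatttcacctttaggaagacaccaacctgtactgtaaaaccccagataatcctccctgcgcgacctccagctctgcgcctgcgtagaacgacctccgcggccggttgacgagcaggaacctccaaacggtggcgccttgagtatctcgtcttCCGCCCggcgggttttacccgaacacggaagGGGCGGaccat
Ndufs4: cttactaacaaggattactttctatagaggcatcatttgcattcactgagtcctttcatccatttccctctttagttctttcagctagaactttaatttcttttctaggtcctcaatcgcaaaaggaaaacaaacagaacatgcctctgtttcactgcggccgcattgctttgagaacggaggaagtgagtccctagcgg
Ndufb11: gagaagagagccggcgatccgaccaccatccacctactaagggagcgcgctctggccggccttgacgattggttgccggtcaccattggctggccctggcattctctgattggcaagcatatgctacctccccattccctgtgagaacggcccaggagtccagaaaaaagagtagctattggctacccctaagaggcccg
Of the 4 windows, only that of Ndufa12 held a match, 1 on each strand.

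A promoter was listed for 32 of the 36 member genes, and the 250 bases before the first listed start of each were searched on both strands. GGGCGG for SP1 was in 14 of 32 windows (43.8%), as in 32.9% of 27025 genes in the table. GCATGCGC for NRF1, a regulator of nuclear genes for mitochondria, was in 2 (6.25%, against 2.32% of all), CCGGAAG for GABPA in 3 (9.38% against 7.05%) and TGACGTCA for CREB in 2 (6.25% against 1.62%). AAGATGGC for YY1 and TCAAGGTCA for ERR were in 0, against 1.59% and 0.366% of all. These are letter matches in short windows and were not set against the expression changes.

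In the membrane arm, 0 of 18 genes passed in either direction (limma, 4 higher and 1 lower at an unadjusted p under 0.05), against 4 of 14 in the matrix arm and 7.86% of all genes higher, and the median log2 changes were 0.30 and 0.52. The difference between the arms was not tested. Without XX 1, 8 of 18 rose in the membrane arm and 9 of 14 in the matrix arm, when 15.9% of all genes rose.

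**Figure D4:**
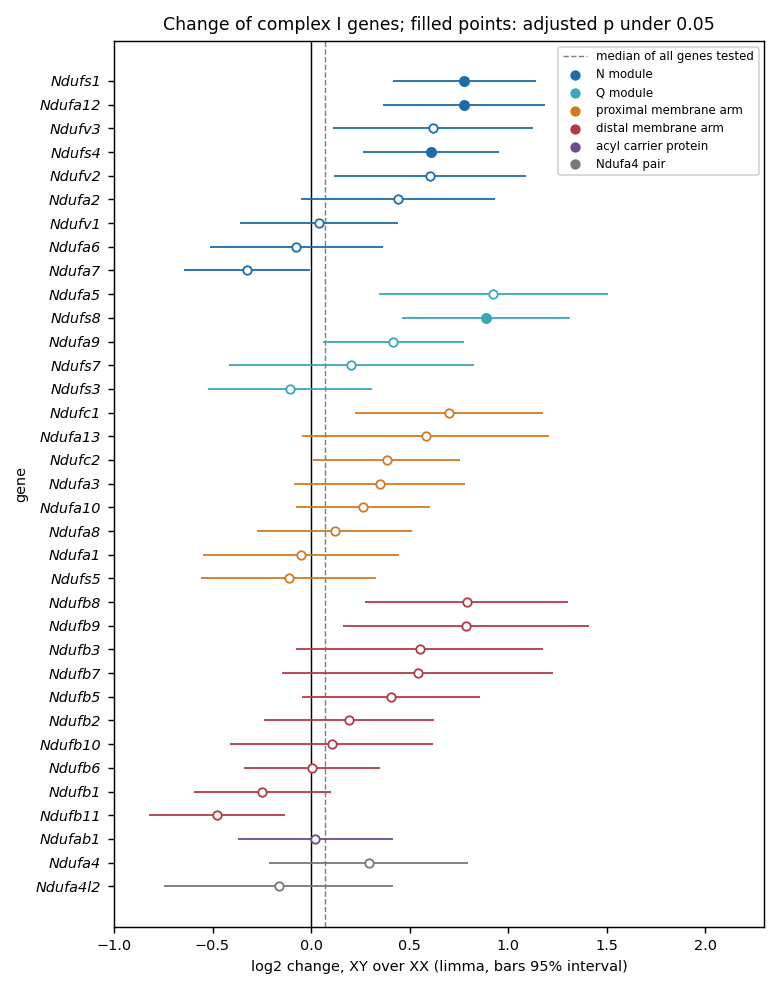
Log2 change of each of the 35 complex I genes, XY over XX, with its 95% interval from limma, grouped by module. Filled points mark the 4 genes with an adjusted p under 0.05, all in the N and Q modules, and the dashed line marks the median of all genes tested, 0.07.

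Of the 8 genes of the proximal membrane arm, 2 were higher at an unadjusted p under 0.05, as were 2346 of all 12442 genes. Both were of the Ndufc pair of small membrane subunits. Ndufc1 read 2477, 2687 and 2391 in XY and 2046, 1370 and 1319 in XX 1, XX 2 and XX 3, a change of 0.70 ± 0.20 (adjusted p = 0.0622). Ndufc2 read 7281, 7497 and 6942 in XY and 6415, 5487 and 4842 in XX, a change of 0.38 (adjusted p = 0.146). In both genes XX 1 was the XX array nearest to XY. Ndufa13, also known as Grim19, a subunit studied for its part in cell death, had 2956 in XX 1, inside the XY range of 2642 to 3111, and 1702 and 1479 in XX 2 and XX 3. Its change of 0.58 had a 95% interval of -0.05 to 1.21. Ndufa3 read 613, 637 and 710 in XY and 643, 460 and 449 in XX 1, XX 2 and XX 3 (log2 change 0.35), where XX 1 fell inside the XY range. Ndufa10 read 2417, 2456 and 2440 in XY and 2214, 1822 and 2079 in XX, without overlap (0.26, adjusted p = 0.252). Neither passed, nor did Ndufa8 (0.12) and Ndufs5 (-0.11).

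Of the 10 genes of the distal membrane arm, Ndufb8 and Ndufb9 had the largest positive changes, at 0.79 each. Ndufb8 read 2835, 3244 and 3025 in XY and 2403, 1539 and 1448 in XX 1, XX 2 and XX 3 (adjusted p = 0.0560). Ndufb9, which binds an acyl carrier protein, read 3785, 3873 and 4024 in XY and 3463, 1845 and 1793 in XX (adjusted p = 0.0897). In both, XX 1 lay closer to XY than to the other XX arrays. For Ndufb7, a subunit facing the intermembrane space, XX 1 was the highest of the 6 arrays at 2922, with 2528 to 2706 in XY and 1383 and 1423 in XX 2 and XX 3 (log2 change 0.54, adjusted p = 0.241). Ndufb3 (0.55), Ndufb5 (0.41), Ndufb2 (0.19), Ndufb10 (0.10) and Ndufb6 (0.00) did not pass, nor did Ndufb1 (-0.25), whose XY values all lay below its XX values.

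The 2 X-linked subunits, both of the membrane arm, had negative changes. Ndufb11 read 7039, 7039 and 6831 in XY 1, XY 2 and XY 3, and 10846, 8845 and 9517 in XX 1, XX 2 and XX 3. All XY arrays lay below all XX arrays, and all 3 of its kept probe sets had negative changes, from -0.62 to -0.48. The change of -0.48 ± 0.15 (SE) missed the threshold (limma adjusted p = 0.0708), and it passed in 4 of 19 alternatives, among them median scaling (-0.90, adjusted p = 0.0253). Ndufa1 read 4031, 4298 and 4276 in XY and 5928, 3797 and 3662 in XX 1, XX 2 and XX 3. Its groups overlapped, and the change of -0.05 had a 95% interval of -0.55 to 0.45.

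The gene for the mitochondrial acyl carrier protein, Ndufab1, which also serves fatty acid and lipoic acid synthesis, read 1741, 1716 and 1645 in XY and 1442, 2001 and 1628 in XX, a change of 0.02 (95% interval -0.37 to 0.41). Ndufa4, since assigned to complex IV, read 408, 279 and 341 in XY and 317, 303 and 215 in XX, a change of 0.29 (adjusted p = 0.381). Its relative Ndufa4l2, a target of hypoxia signalling in other cells, read 75.6, 42.9 and 39.7 in XY and 49.8, 55.5 and 70.3 in XX, a change of -0.16. The groups overlapped in all 3 genes.

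Probe sets of 1 gene did not always agree. Of 68 kept probe sets, 5 rose and 0 fell (limma over 22997 probe sets, 17 higher and 4 lower at an unadjusted p under 0.05), against 5.08% higher and 5.41% lower among all probe sets. These 5 were the single probe set of Ndufs1, 2 of Ndufs8 and 2 of Ndufa12. The leading probe set of Ndufs4 missed in this test (adjusted p = 0.0530). The 2 of Ndufs8 and the 2 of Ndufa12 have the suffix x_at, which the manufacturer gives to probe sets that may also bind other transcripts, as 14 of the 68 do.

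Of the 19 genes with several kept probe sets, 6 held both signs. The 6 probe sets of Ndufs8 ran from 0.05 to 0.90. Those of Ndufs8 without the x_at suffix had 0.44, 0.15 and 0.05, and none of them passed. The 3 of Ndufv2 had changes of 0.60, 0.21 and -0.01, and the 2 of Ndufa5 had 0.92 and 0.16. Ndufa10, Ndufa3, Ndufc2, Ndufs7 and Ndufab1 were the others with both signs. With the mean of its kept probe sets for each gene, Ndufs1 and Ndufa12 rose and Ndufs8 and Ndufs4 did not pass.

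**Figure D5:**
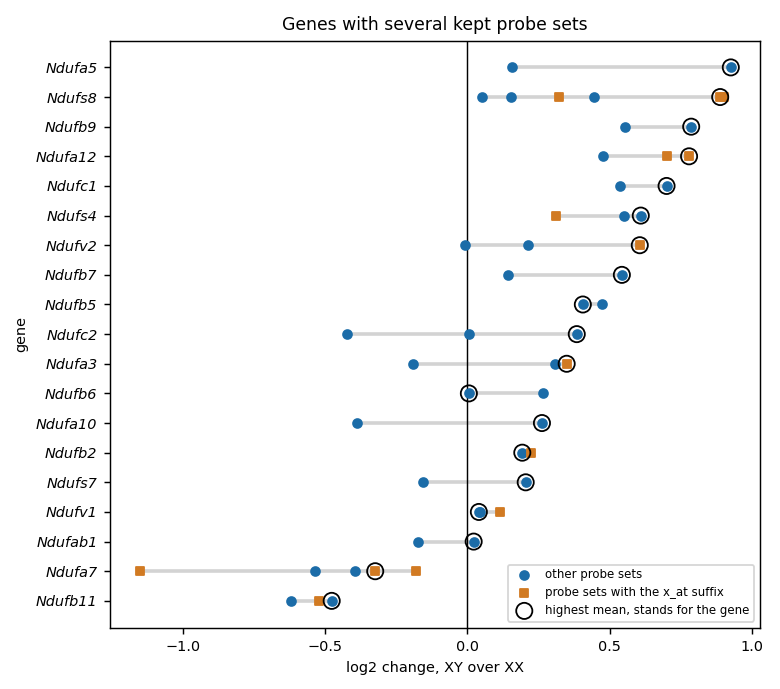
Log2 change, XY over XX, of every kept probe set of the 19 complex I genes that have several. Squares mark probe sets with the x_at suffix and rings the one with the highest mean signal, which stands for the gene. The probe sets of Ndufs8 spread from 0.05 to 0.90, and those of Ndufb11 and Ndufa7 are all negative.

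Genes that build and supply complex I were compared by lists. Their unadjusted counts stand beside 2346 higher and 1657 lower of all 12442 genes. Of 17 measured assembly factors, 2 rose (11.8%, near the 7.86% of all genes) and 0 fell (limma, 6 higher and 1 lower at an unadjusted p under 0.05), with a median log2 change of 0.18. Tmem126a, a membrane protein needed for assembly of the distal membrane arm, rose by 1.24 ± 0.24 (log2 ± SE, adjusted p = 0.0202). Nubpl, which delivers iron-sulfur clusters to complex I, rose by 0.71 ± 0.16 (adjusted p = 0.0334). Ndufaf8 (0.71, adjusted p = 0.0510) and Tmem186 (-0.59, adjusted p = 0.0725) did not pass. Tmem126a passed in 12 of 19 alternatives and Nubpl in 8.

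Of 11 genes for making iron-sulfur clusters, 1 rose (9.09%, near the 7.86% of all genes) and 0 fell (limma, 2 higher and 0 lower at an unadjusted p under 0.05). Isca2, which acts late in forming the clusters, rose by 0.85 ± 0.18 (adjusted p = 0.0249), and Nfu1, a cluster carrier, had 0.75 (adjusted p = 0.0509). Of 15 genes that keep mitochondrial DNA or regulate mitochondrial genes, 1 rose (6.67%) and 0 fell (limma, 3 higher and 3 lower at an unadjusted p under 0.05). Pprc1, a coactivator related to PGC-1, rose by 0.70 ± 0.17 (adjusted p = 0.0415). The mitochondrial DNA packaging factor gene Tfam (-0.80, adjusted p = 0.0522), Nrf1 (0.54, 0.0829) and Ppargc1b (-0.50, 0.0997) did not pass. Isca2 passed in 7 of 18 alternatives and Pprc1 in 7 of 19.

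In respiratory complexes II to V, 5 of 37 genes rose (13.5%, against 7.86% of all genes) and 0 fell (limma, 12 higher and 2 lower at an unadjusted p under 0.05). The median log2 change was 0.26, and 27 of the 37 (73%) had a positive one, against 55.6% of all genes. Atp5g3, of the membrane ring of the ATP synthase, rose by 1.003 (adjusted p = 0.0116) and was called in 14 of 19 alternatives. Cyc1, cytochrome c1 of complex III, rose by 0.83 and was called in 11. Uqcrb of complex III rose by 0.92, Atp5pb of the ATP synthase by 0.87 and Cox6b1 of complex IV by 0.95, with calls in 5, 7 and 6 of 19. On the per-array measure, the median of complexes II to V was 0.07, 0.12 and 0.06 in XY and -0.05, -0.10 and -0.09 in XX, so XX 2 and XX 3 were less far below XX 1 than for complex I. Whether complex I differs from the other complexes was not tested.

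The samples had the markers of their label. All 12 markers of fully grown oocytes passed the filter, and their summed normalized intensity was 83459 to 87553 in XY and 92500 to 100518 in XX. Of these 12, 2 fell in XY (16.7%, against 5.34% of all genes) and 0 rose (limma, 0 higher and 4 lower at an unadjusted p under 0.05). A negative change was seen in 11, against 5520 of all 12442 genes. For 7 the XY values lay wholly below the XX values, as for 16.2% of all genes. Bmp15, an X-linked gene for a growth factor made by oocytes, fell by 1.34 on the log2 scale (adjusted p = 0.0101, called in 17 of 19 alternatives). The part of the single X of XY oocytes in this fall was not tested. Mos, a kinase of meiotic arrest, fell by 0.85 (adjusted p = 0.0272, 10 of 19). H1f8 (-0.74, adjusted p = 0.0535) and Zp1 (-0.46, 0.0937) did not pass.

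The 20 measured granulosa and cumulus markers summed to 1834 to 2091 in XY and 1607 to 1896 in XX, and none was at 0. Nr5a2 made up a large part of each sum, at 773, 721 and 800 in XY and 931, 940 and 710 in XX. Its log2 change was -0.16, so the sums say little about the other markers. Of the 14 that passed the filter, 1 rose (7.14%, against 7.86% of all genes) and 0 fell (limma, 2 higher and 1 lower at an unadjusted p under 0.05). Their median log2 change was 0.47, against 0.07 over all genes, and 11 of the 14 had a positive one, against 55.6% of all genes. Inha, which encodes an inhibin subunit, rose by 1.58 ± 0.41 (adjusted p = 0.0475), a call made in 10 of 19 alternatives, while Kitl had -0.63 with no overlap (adjusted p = 0.0715). Amh, a defining granulosa marker, was 2.64 to 5.65 in XY and 3.26 to 7.34 in XX, below the filter. On the per-array measure these markers moved with complex I, at 0.26, 0.10 and 0.19 in XY, and at 0.15, -0.19 and -0.16 in XX 1, XX 2 and XX 3, so here too XX 1 lay beside the XY arrays. Their part in the complex I changes was not tested, and a change in oocyte RNA content cannot be told apart from one in its composition. Arrays correlated at 0.980 to 0.982 within XY, 0.967 to 0.983 within XX and 0.940 to 0.962 between groups.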

How the data were processed

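Affymetrix 3' arrays of 3 XY and 3 XX samples were analysed. The authors deposited 1 linear intensity per probe set and array, and MAS5 is the tool named, per the submitters' processing notes; the sources used here give neither its version nor its target value. Depth has no counterpart on arrays, and 3 arrays per group limit the precision. The deposited values had medians of 24.5 to 31.4 and 2% trimmed means of 194 to 332, so the 45037 non-control probe sets were quantile-normalized, which hides any change in total mRNA.

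R 4.3.3 and limma 3.58.1 were used on log2(intensity + 9), with the pseudocount set at the lower quartile of all deposited intensities, rounded; reported changes are on this scale and understate those of dim genes. Probe sets at or above the array median on at least 3 of 6 arrays were kept, and all 35 genes were at or above it on all 6. Each gene was represented by its brightest kept probe set. The XY and XX arrays were fitted with limma's moderated linear model, and p-values were adjusted by Benjamini and Hochberg's method over all 12442 genes, with a threshold of 0.05. The p-values rest on the spread among the 3 samples of each group, which are labelled as biological replicates. The moderated model draws each gene's spread towards that of all genes in the fit, so they rest on that as well. The fit was run on simulated data in which genes varied independently of each other. A shift shared by many genes on an array, as seen here between XX arrays, was not simulated. Apart from the filter, the choice of the brightest probe set and the marker sums, intensities were compared between arrays within a probe set and not between probe sets. The marker sums add intensities of different probe sets, so bright probe sets weigh most in them.

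Every member could be named, with values on each array for those that passed, the X-linked ones, those with disagreeing probe sets and the leading ones of modules with none. From other lists, genes that passed and up to 4 with the smallest p could be named. Amh and Nr5a2 were named outside this rule. Modules, lists and members were chosen with earlier results of these data known. Array values of Ndufb7, Ndufb9, Ndufa13, Ndufa2, Ndufa5, Ndufa7, Ndufs3, Ndufv1, Ndufv3 and Ndufa4l2 were given although this rule does not ask for them, after they were seen. Samples with the same replicate number did not deviate together (r of -0.10, 0.00 and -0.04). These values cannot show whether the samples were collected or processed as pairs.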

Additional observations from a re-analysis of the deposited data

How the results depend on the processing

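The reported counts were 4 complex I genes higher and 0 lower, and 5 probe sets higher and 0 lower. Genes higher numbered 0 with the deposited scale, median scaling, the replicate block, the Actb covariate and XX 1 alone, 1 with no filter, 2 with the mean of probe sets, 4 with trimmed mean scaling or a pseudocount of 1, 7 with a pseudocount of 32 or the 70th percentile filter, 12 with a variance trend, 14 with array weights and 10 at an adjusted p of 0.10. Genes lower numbered 1 with median scaling, the 70th percentile filter, the mean of probe sets, the trend, array weights and an adjusted p of 0.10. Probe sets higher numbered 0 with the deposited scale, median scaling, no filter, the replicate block, the Actb covariate and XX 1 alone, 3 and 9 with pseudocounts of 1 and 32, 10 with the 70th percentile filter, 14 with the trend, 20 with array weights and 10 at an adjusted p of 0.10. Probe sets lower numbered 4 with median scaling, 1 with a pseudocount of 32, 2 with the 70th percentile filter, the trend or array weights, and 3 at an adjusted p of 0.10. Leaving out 1 array gave 0 to 17 genes higher and 0 lower, and 0 to 22 probe sets higher and 0 to 1 lower, with the highest counts without XX 1. The share of all probe sets called was computed for the reported setting alone, at 5.08% higher and 5.41% lower. The probe set counts of other settings therefore cannot be told apart from a shift of all probe sets.

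The median of complex I relative to all genes, 0.28, was 0.14 with the deposited scale, 0.14 with median scaling, 0.16 with trimmed mean scaling, 0.026 with the Actb covariate and 0.0701 with XX 1 alone, and ran from 0.20 to 0.40 as 1 array was left out. It stayed positive in these and the other alternatives run. The median of all genes was -0.12, -0.27 and 0.18 under those scalings, and 8 and 15 of the 35 genes changed sign with the deposited scale and median scaling, none of them called in either setting. Over all genes, calls were 978 higher and 665 lower, against 472 and 527 with the deposited scale, 483 and 1618 with median scaling, 1425 and 584 with trimmed mean scaling, 1429 and 1005 with the trend, 1961 and 1303 with array weights, 424 and 255 with the replicate block, 159 and 77 with the Actb covariate, 566 and 347 with no filter, and 1 and 0 with XX 1 alone, a lone sample assumed to vary like the XY arrays, so that the counts of 0 there carry no information. The replicate numbers are not known to pair samples. The cause of these shifts was not tested.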
